A study of Mus musculus with 6 samples.

Results

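Mitosis and G2/M genes are the genes whose products carry a cell from the end of DNA replication through chromosome segregation and cytokinesis. The 45 genes described here were chosen by name, as mitotic cyclins and kinases, spindle checkpoint proteins, kinesins, centromere proteins and activators of the anaphase promoting complex, and all 45 were among the 14777 genes of the deposited count table. The study profiled polyadenylated RNA of mouse regulatory T cells (Treg) that differ in the form of FOXP3, the transcription factor that defines this lineage. In 3 libraries the cells carried a deletion of Foxp3 exon 2, so that they made FOXP3 ΔE2 (written dE2 here), and in 3 libraries they made full-length FOXP3 (FL). Both groups came from C57BL/6 naive CD4 T cells that had been induced in culture for 3 days with plate-coated anti-CD3 and with anti-CD28 at 1 µg/ml each, human TGF-beta at 5 ng/ml and human IL-2 at 20 ng/ml, and in both over 90% of cells were FOXP3 positive per the labels. The labels do not say whether a replicate was a separate animal or culture, so the p-values given here speak of the spread among 6 libraries, and that spread may be technical.

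In a dividing cell, cyclin B bound to the kinase CDK1 drives entry into mitosis, and its activity is set by CDC25 phosphatases and by the Polo and Aurora kinases. The spindle checkpoint then holds the anaphase promoting complex, a ubiquitin ligase, until every chromosome is attached to spindle microtubules. Most of these genes are transcribed late in the cycle, under the MuvB complex with B-MYB and FOXM1, which acts through promoter elements called CHR (cell cycle genes homology region) and through CCAAT boxes bound by NF-Y. Naive T cells are quiescent and divide rapidly after stimulation through CD3 and CD28, so a culture of this kind holds many cells in cycle. In bulk RNA, fewer cells in mitosis and less mitotic RNA per cell cannot be told apart.

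The promoters show what these genes share apart from function. RefSeq windows (GRCm38.p6, from 250 bases before to 50 after the annotated start) matched 38 of the 45 genes. The CHR letters, TTTGAA or its variant with the letters TTCGAA, searched on both strands, stood in 31 of 38 windows (81.6%), against 14.2% of the windows of 9446 tested genes. Within 100 bases before to 50 after the start they stood in 30 of 38 (78.9%), against 5.46% of the tested genes. CCAAT, also searched on both strands, stood in 28 of 38 whole windows (73.7%), against 39.1% of the tested genes. Windows with both numbered 26 of 38 (68.4%), against 6.00%. The following stretches are the 100 bases before the RefSeq start of 6 genes whose CHR letters lie before the start. They run 5′ to 3′ along the gene, and capitals mark the CHR letters and CCAAT, each as read on either strand:
Cdk1 (chr10:69352913-69353012, minus strand): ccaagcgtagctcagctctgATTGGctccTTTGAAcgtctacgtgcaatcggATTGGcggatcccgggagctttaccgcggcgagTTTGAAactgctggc
Cdc20 (chr4:118437344-118437443, minus strand): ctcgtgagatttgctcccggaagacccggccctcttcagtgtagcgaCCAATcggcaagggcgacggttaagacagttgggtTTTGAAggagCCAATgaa
Ube2c (chr2:164769829-164769928, plus strand): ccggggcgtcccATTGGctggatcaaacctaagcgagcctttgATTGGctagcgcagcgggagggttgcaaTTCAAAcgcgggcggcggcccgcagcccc
Kif11 (chr19:37376282-37376381, plus strand): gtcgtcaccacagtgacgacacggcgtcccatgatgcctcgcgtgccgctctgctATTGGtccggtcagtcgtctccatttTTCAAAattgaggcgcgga
Kif22 (chr7:127042421-127042520, minus strand): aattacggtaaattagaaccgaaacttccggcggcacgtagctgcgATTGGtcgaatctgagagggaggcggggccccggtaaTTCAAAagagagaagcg
Top2a (chr11:99024190-99024289, minus strand): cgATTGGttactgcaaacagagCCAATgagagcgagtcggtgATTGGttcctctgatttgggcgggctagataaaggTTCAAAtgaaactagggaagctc
Within these 100 bases, Cdk1 held CHR letters at 2 places and CCAAT letters at 2, and in Top2a 3 CCAAT matches preceded a single CHR match. A letter match is a description of the sequence and no record of binding.

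Total counts were 13307155 to 16140432 per library, and counts are given as CPM, scaled to library size with TMM factors. Foxp3 stood at 436, 403 and 335 CPM in dE2 replicates 1 to 3 and 447, 397 and 337 CPM in FL replicates 1 to 3, a count over all exons that cannot show whether exon 2 was lost. Of 5 T cell markers, Cd4, Cd3d, Cd3e, Il2ra and Foxp3 were all detected. They summed to 8157 to 10287 CPM in dE2 and 7877 to 8371 CPM in FL, mostly from Il2ra (means of 5325 and 5154 CPM). Cd4 was called higher in dE2, at a log2 fold change of 0.49 (edgeR quasi-likelihood test, adjusted p = 0.044). Cd3d (0.40, adjusted p = 0.073) and Cd3e (0.37, adjusted p = 0.105) were not called. For Cd4, Cd3d and Cd3e every dE2 library lay above every FL library, while Il2ra (0.05) and Foxp3 (-0.01) overlapped between groups. Markers of CD8 T cells (Cd8a and Cd8b1) summed to 138 CPM in dE2 replicate 1, 50.8 to 58.4 CPM in the other dE2 libraries and 29.0 to 53.0 CPM in FL. B cell markers summed to 14.7 to 33.7 CPM in dE2 and 14.8 to 33.5 CPM in FL. NK cell markers (Klrd1, Eomes and Klrb1c) summed to 77.7 to 111 CPM in dE2 and 59.1 to 66.6 CPM in FL. Lyz2, the 1 myeloid marker in the table, was 14.7 CPM in dE2 replicate 1 and 0.178 to 2.32 CPM in the other 5 libraries. The authors' deposited mapping summary gives 75.4%, 75.5% and 69.3% of reads as mapped to genes for dE2 replicates 1 to 3, against 69.3% to 71.5% for FL. The part of these values in the results below was not tested.

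All 45 genes were expressed. Together they took 9415 ± 790 CPM in dE2 and 9053 ± 425 CPM in FL (SD, n = 3), a difference smaller than either SD. As raw counts they made up 0.897% ± 0.037 of a dE2 library and 0.948% ± 0.035 of an FL library (SD, n = 3), a difference of -0.052 percentage points that is larger than either SD. The sums and the shares differ in direction because CPM divides by the TMM scaling factors, which were 0.914 to 0.995 in dE2 and 1.04 to 1.06 in FL. Per kilobase of exon (RPKM, mean of 6 libraries), the levels spanned from Top2a at 209 ± 20.8 to Kif18b at 6.07 ± 0.68 (SD over 6 libraries). Top2a encodes topoisomerase II alpha, which untangles sister chromatids, and its range of 191 to 249 RPKM lay wholly above that of Mki67 at 121 to 145 RPKM. Mki67 encodes the proliferation marker Ki-67 that coats mitotic chromosomes, and it lay wholly above Ccnb2 at 70.3 to 116.7 RPKM. Kif18b lay wholly below its neighbour Plk4, at 4.81 to 6.66 against 7.32 to 9.04 RPKM. The ranges of neighbours in the order overlapped in the other 41 of 44 pairs.

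**Figure D1:**
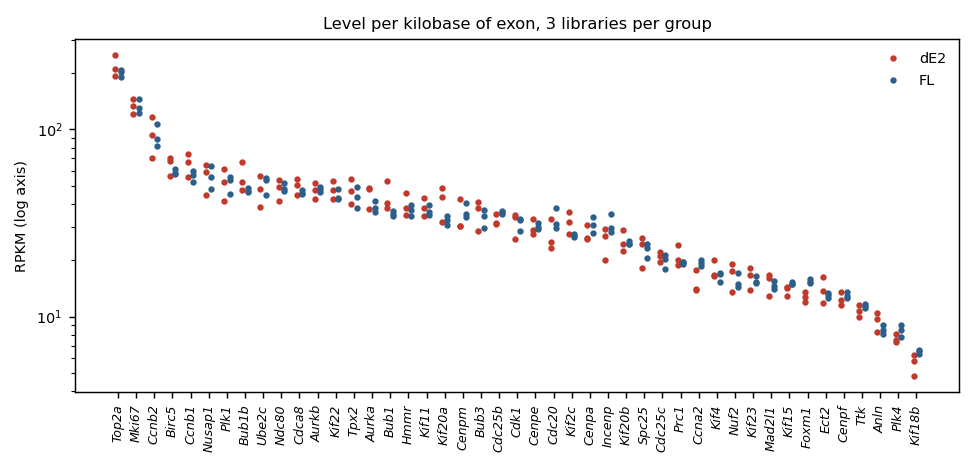
Level per kilobase of exon (RPKM, log axis) of the 45 genes in order of their mean, with 1 point per library, dE2 in red to the left of FL in blue. Top2a and Mki67 stand above the other genes, Kif18b stands lowest at a mean of 6.07 RPKM, and the points of both groups lie side by side for most genes.

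The comparison of dE2 with FL asks whether loss of exon 2 went with a different level of these RNAs. Of the 45 genes, 0 were called higher and 0 lower in dE2 (edgeR quasi-likelihood test, adjusted p under 0.05 over 14632 tested genes), whereas 6.17% of all tested genes were called, 3.75% higher and 2.43% lower. That share depended on single libraries, at 1.19% without dE2 replicate 2, 9.29% without dE2 replicate 1, and 2.41%, 3.09% and 3.58% without FL replicates 1, 2 and 3. Among the 6699 genes expressed at or above the level of the lowest of the 45, 9.48% were called. DESeq2, limma-voom and edgeR's likelihood ratio test also called 0 of the 45, against 7.7%, 4.48% and 7.59% of all tested genes. At an unadjusted p under 0.05 there were 5 of the 45 by the quasi-likelihood and likelihood ratio tests and 4 by DESeq2 and by limma-voom, against 22.5% of all tested genes by the quasi-likelihood test. The fitted log2 fold changes (dE2 minus FL) ran from -0.35 for Ccna2 to 0.34 for Kif20a, with 28 of 45 above 0 (49.5% of all tested genes) and a median of 0.03, beside a median of -0.004 over all tested genes. The sign count turned under some settings, with 38 of 45 below 0 without a composition factor and 28 of 45 below 0 without dE2 replicate 2. The median size of the log2 fold change, sign aside, was 0.11 for the 45 genes and 0.20 for all tested genes.

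A missed threshold does not by itself show equal levels, so the 95% intervals of the fold changes were read as well. For 43 of the 45 genes (95.6%) the whole interval lay within 1.5-fold in either direction, against 48.6% of all tested genes and 76.4% of the genes at or above the level of the lowest of the 45. The exceptions were Ccna2, with an interval of -0.60 to -0.09, and Kif20a, with 0.06 to 0.62 (log2). The median standard error was 0.12 for the 45 genes and 0.16 for all genes tested. The groups did not overlap for 6 of the 45 genes, 2 with dE2 above FL and 4 with dE2 below FL. This held for 27.1% of all tested genes, 13.6% with dE2 above FL and 13.5% with dE2 below FL. Among the genes at or above the level of the lowest of the 45, the share was 33.7%.

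**Figure D2:**
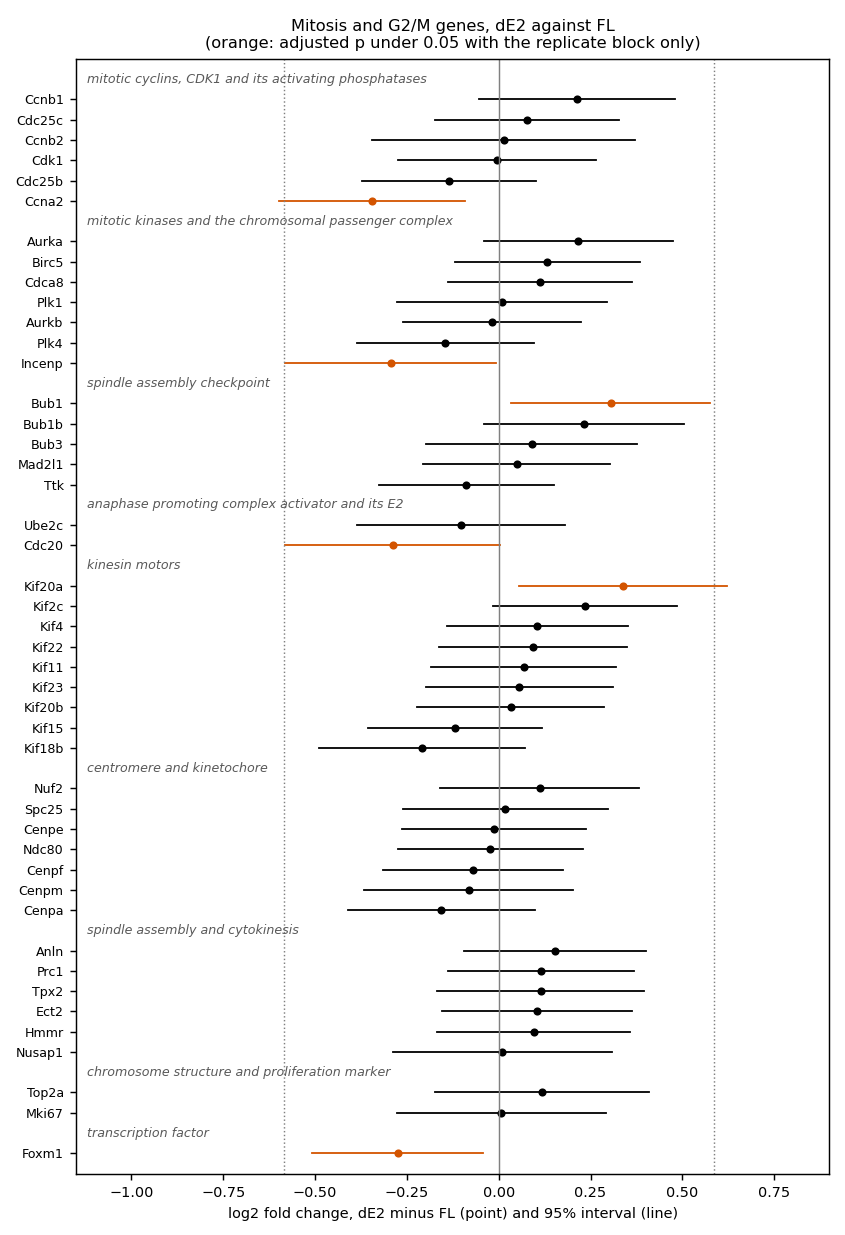
Log2 fold change (dE2 minus FL, points) with its 95% interval (lines) for the 45 genes by role. Dotted lines mark 1.5-fold in either direction. Orange marks the 6 genes that passed adjusted p under 0.05 with the replicate block but not in the fit drawn here. The points lie between -0.35 and 0.34.

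The replicate numbers, which the groups share, were taken to pair the libraries from the data themselves. With the number as a block, 2 of the 45 genes were called higher (Kif20a and Bub1) and 4 lower in dE2 (Ccna2, Incenp, Cdc20 and Foxm1), against 21.5% of all tested genes, 11.5% higher and 10.1% lower. With the block and without dE2 replicate 1, Bub1 (0.38, adjusted p = 0.038) and Ccna2 (-0.44, adjusted p = 0.014) passed. The share called among the 45 was below that of all tested genes with and without the block.

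Among the cyclins and the kinase they activate, Ccna2, which encodes cyclin A2 of S and G2 phase (chromosome 3, 36564865 to 36572150, minus strand, mm10), stood lowest against FL. It had 72.6, 56.8 and 57.6 CPM in dE2 replicates 1 to 3 and 82.3, 79.4 and 76.0 CPM in FL replicates 1 to 3. All 3 dE2 libraries lay below all FL libraries. The log2 fold change was -0.35 ± 0.12 (SE; edgeR quasi-likelihood test, adjusted p = 0.092), and adjusted p = 0.0036 with the replicate block. Ccna2 also passed without dE2 replicate 1, at -0.47 with adjusted p = 0.023, and without a composition factor, at -0.48 with adjusted p = 0.023. Of its exonic bases, 12.5% lie opposite Exosc9, and the reads carry no strand information. Cyclin B1 (Ccnb1), the partner of CDK1 at mitotic entry, had 284, 311 and 234 CPM in dE2 and 252, 242 and 222 CPM in FL. The groups overlapped, at 0.21 ± 0.13 on the log2 scale (edgeR, adjusted p = 0.342). Of the 50-base stretches in Ccnb1 transcripts, 18.9% also occur in its pseudogene Ccnb1-ps, so its count may include or lose shared reads. Cdk1 itself had 168, 172 and 127 CPM in dE2 and 163, 164 and 142 CPM in FL, with a fitted difference of -0.00 ± 0.13 (log2) and an interval of -0.27 to 0.27. Replicate 3 was the lowest library of each group for Cdk1. Cyclin B2 (Ccnb2) at 0.01 ± 0.17, and the CDK1-activating phosphatases Cdc25b at -0.14 ± 0.11 and Cdc25c at 0.08 ± 0.12, overlapped between groups.

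Of the 7 genes for mitotic kinases and the passenger complex, 0 passed, and 1 did with the block. The shares of all tested genes were 6.17% and, with the block, 21.5%. Plk1, the Polo kinase that acts at centrosomes, kinetochores and the midbody, had 135, 116 and 91.3 CPM in dE2 and 123, 118 and 99.1 CPM in FL, a log2 fold change of 0.01 ± 0.14. Of the 50-base stretches in its transcripts, 6.56% also occur in the pseudogene Plk-ps1. Aurkb, the kinase of the chromosomal passenger complex, which corrects faulty attachments, had 152, 140 and 126 CPM in dE2 and 136, 145 and 141 CPM in FL, with -0.02 ± 0.12. For both genes the groups overlapped, and the library means differed by less than the SD of the dE2 libraries. Incenp, the scaffold of the same complex (chromosome 19, 9872297 to 9899533, minus strand), had 94.3, 64.8 and 86.2 CPM in dE2 and 114, 91.6 and 95.3 CPM in FL. Its log2 fold change was -0.29 ± 0.14 (edgeR, adjusted p = 0.21), and adjusted p = 0.012 with the block. The dE2 library was the lower at each of the 3 replicate numbers, a pairing the labels do not state. The other subunits stood the other way, at 0.13 ± 0.12 for Birc5 (survivin) and 0.11 ± 0.12 for Cdca8 (borealin), and did not pass with or without the block. Aurka, the spindle pole kinase, was at 0.22 ± 0.12 and Plk4, which starts centriole duplication, at -0.15 ± 0.12.

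Of the 5 spindle checkpoint genes, 1 had groups that did not overlap, beside 27.1% of all tested genes. Bub1, a kinase that recruits checkpoint proteins to kinetochores (chromosome 2, 127801122 to 127831865, minus strand), had 166, 232 and 176 CPM in dE2 and 153, 161 and 151 CPM in FL. All dE2 libraries were above all FL libraries, with replicate 2 the highest of each group. The log2 fold change was 0.30 ± 0.13 (edgeR, adjusted p = 0.166), and adjusted p = 0.016 with the block. Bub1b, which encodes BUBR1 of the mitotic checkpoint complex, had the same highest library, dE2 replicate 2 at 285 CPM, and a log2 fold change of 0.23 ± 0.13 (adjusted p = 0.305; 0.089 with the block). Bub3 (0.09 ± 0.14), Mad2l1 (MAD2, 0.05 ± 0.12) and the upstream kinase gene Ttk (MPS1, -0.09 ± 0.11) overlapped between groups.

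The target of that checkpoint is Cdc20, the activator of the anaphase promoting complex (chromosome 4, 118432901 to 118437352, minus strand). It had 61.8, 43.2 and 46.5 CPM in dE2 and 71.2, 58.2 and 55.9 CPM in FL. At each of the 3 replicate numbers dE2 was lower, although the groups overlapped. Its log2 fold change was -0.29 ± 0.14 (edgeR, adjusted p = 0.228). It passed with the block at adjusted p = 0.021, and without dE2 replicate 1 at -0.46 with adjusted p = 0.039. Of the 50-base stretches in its transcripts, 10.3% also occur in Gm7856. Ube2c, the ubiquitin-conjugating enzyme of the complex, had 146, 125 and 101 CPM in dE2 and 140, 143 and 117 CPM in FL (-0.10 ± 0.14), and 22.8% of its exonic bases lie opposite Tnnc2. The upstream stretches printed above for both genes hold CHR and CCAAT letters.

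Of the 9 kinesin motors, 7 had fitted values above 0, but without a composition factor Kif11, Kif20b, Kif23, Kif4 and Kif22 were below 0. Kif20a, which carries the passenger complex to the central spindle (chromosome 18, 34624624 to 34633265, plus strand), had the highest log2 fold change of the 45 genes. It had 166, 184 and 122 CPM in dE2 and 125, 117 and 131 CPM in FL, so that dE2 replicate 3 lay below 2 FL libraries. The log2 fold change was 0.34 ± 0.14 (edgeR, adjusted p = 0.141), with adjusted p = 0.012 under the block and 0.028 without dE2 replicate 3, where it was 0.49. Of its exonic bases, 29.3% lie opposite Cdc23, a subunit gene of the anaphase promoting complex, and reads of this shared stretch cannot be told apart. Cdc23 itself had 88.6, 103 and 89.6 CPM in dE2 and 63.3, 78.3 and 75.5 CPM in FL (0.37 ± 0.12, adjusted p = 0.069; 0.0015 with the block). Kif11, the motor that pushes spindle poles apart, had 184, 208 and 167 CPM in dE2 and 174, 189 and 169 CPM in FL (0.07 ± 0.12). Kif2c, a microtubule depolymerase at centromeres, had 140, 157 and 121 CPM in dE2 and 118, 116 and 120 CPM in FL, all dE2 libraries above all FL libraries by a narrow margin (0.23 ± 0.12, adjusted p = 0.255). In Kif15 (-0.12 ± 0.11), which backs up Kif11, and Kif18b (-0.21 ± 0.13), a motor at microtubule plus ends, all dE2 libraries lay below all FL libraries without passing. Kif18b, the lowest of the 45 genes per kilobase, had 22.3, 17.2 and 20.8 CPM in dE2 and 23.8, 22.5 and 23.4 CPM in FL. The motors of the midzone and of chromosome arms, Kif23 (0.06 ± 0.12), Kif20b (0.03 ± 0.12), Kif4 (0.11 ± 0.12) and Kif22 (0.09 ± 0.12), overlapped between groups. Of the exonic bases of Kif4, 15.1% lie opposite Pdzd11.

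The centromere and kinetochore genes lay from -0.16 to 0.11 on the log2 scale, and 0 of 7 passed with or without the block. Of all tested genes 21.5% passed with the block and 6.17% without it. Cenpe, a kinetochore motor that brings chromosomes to the metaphase plate, had 239, 287 and 251 CPM in dE2 and 272, 260 and 252 CPM in FL (-0.01 ± 0.12). Ndc80, Nuf2 and Spc25, subunits of the complex that grips microtubules, had log2 fold changes of -0.02 ± 0.12, 0.11 ± 0.13 and 0.02 ± 0.13. Cenpa, the histone H3 variant that marks centromeres, stood at -0.16 ± 0.12, Cenpf at -0.07 ± 0.12 and Cenpm at -0.08 ± 0.14. The groups overlapped for all 7 genes, whereas they did not overlap for 27.1% of all tested genes.

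The 6 genes of spindle assembly and cytokinesis all had fitted values above 0, from 0.01 to 0.15. With or without the block 0 of them passed, beside 21.5% and 6.17% of all tested genes. Tpx2, which activates Aurora A on the spindle, had 220, 255 and 187 CPM in dE2 and 231, 204 and 178 CPM in FL (0.11 ± 0.14). Anln (anillin, of the cleavage furrow) stood at 0.15 ± 0.12, Prc1, which bundles midzone microtubules, at 0.11 ± 0.12, Ect2, which activates RhoA for the furrow, at 0.10 ± 0.12, Hmmr at 0.09 ± 0.13 and Nusap1 at 0.01 ± 0.14. Without a composition factor 5 of these 6 values were below 0, with Anln the exception, and the median of all tested genes moved to -0.14, so the shared sign depends on the scaling.

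Top2a had 1896, 2241 and 1748 CPM in dE2 and 1884, 1817 and 1723 CPM in FL, a log2 fold change of 0.12 ± 0.14. Mki67 had 1218, 1340 and 1460 CPM in dE2 and 1461, 1312 and 1227 CPM in FL, with 0.01 ± 0.14 and an interval of -0.28 to 0.29. In Mki67 the highest dE2 and the highest FL library were equal to within 1 CPM. Foxm1, the transcription factor of the G2/M genes (chromosome 6, 128362967 to 128376146, plus strand), had 73.4, 69.1 and 77.6 CPM in dE2 and 91.2, 88.0 and 87.2 CPM in FL. All dE2 libraries lay below all FL libraries, and the log2 fold change was -0.28 ± 0.11 (edgeR, adjusted p = 0.143). With the block its adjusted p was 0.025, and without a composition factor it was 0.033, at -0.41. The authors' deposited table of their own edgeR comparison gives the 45 genes FDR values of 0.087 (Ccna2) or more, so that 0 of them lay under 0.05.

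**Figure D3:**
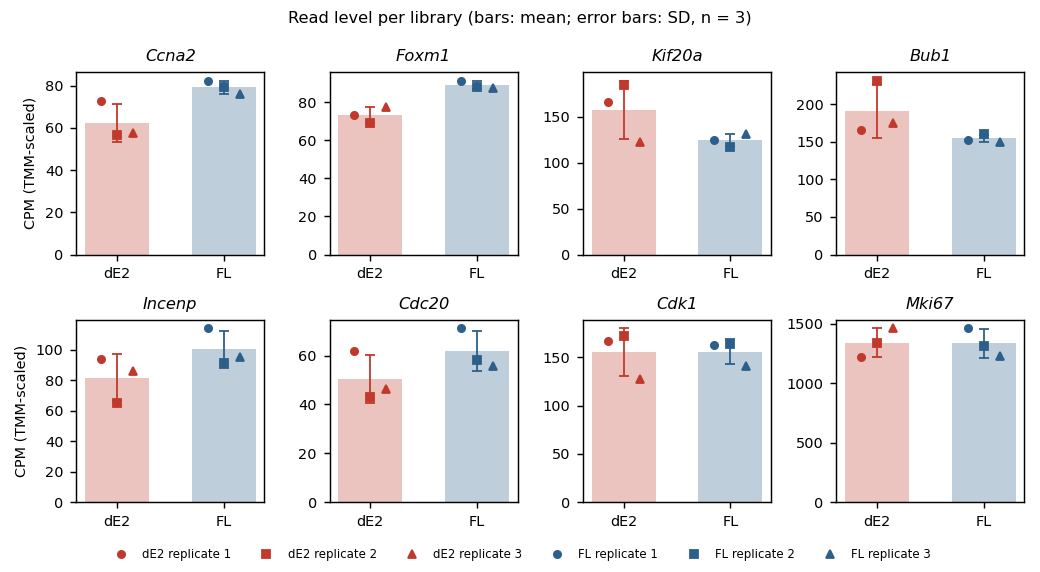
CPM scaled by TMM in each library for the 6 genes called with the replicate block and for Cdk1 and Mki67, dE2 left of FL. Bars are means, error bars are SD (n = 3), and symbols mark replicates 1, 2 and 3. Ccna2, Foxm1 and Bub1 show groups that do not overlap, and Cdk1 and Mki67 show means that differ by less than the SD of either group.

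The mean level of the 45 genes varied more among libraries of a group than between the groups. Their mean log2(CPM + 1) was 7.16, 7.20 and 6.97 in dE2 replicates 1 to 3 and 7.14, 7.11 and 7.04 in FL replicates 1 to 3, or 7.11 ± 0.12 in dE2 and 7.09 ± 0.047 in FL (SD, n = 3). The highest and the lowest library were thus both dE2. For 24 of the 45 genes dE2 replicate 2 was the highest of the 6 libraries, as it was for 22.8% of all tested genes, and for 20 of the 45 dE2 replicate 3 was the lowest, as for 17.4% of all tested genes. In 0 of the 45 genes was dE2 replicate 3 the highest, against 17.5% of all tested genes. Mki67 came close, at 1460 CPM there against 1461 CPM in FL replicate 1. Replicate 3 was the lowest library of both groups in 20 of the 45 genes, against 16.1% of all tested genes. Across the 45 genes, deviations from the group means correlated at 0.28 to 0.48 between libraries with the same number and at -0.36 to -0.05 between libraries with different numbers. Those correlations are over genes that share libraries and depth. Deviations within a group sum to 0 for each gene, so the negative values follow in part from the positive ones. Without dE2 replicate 3 the median log2 fold change of the 45 genes was 0.14.

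**Figure D4:**
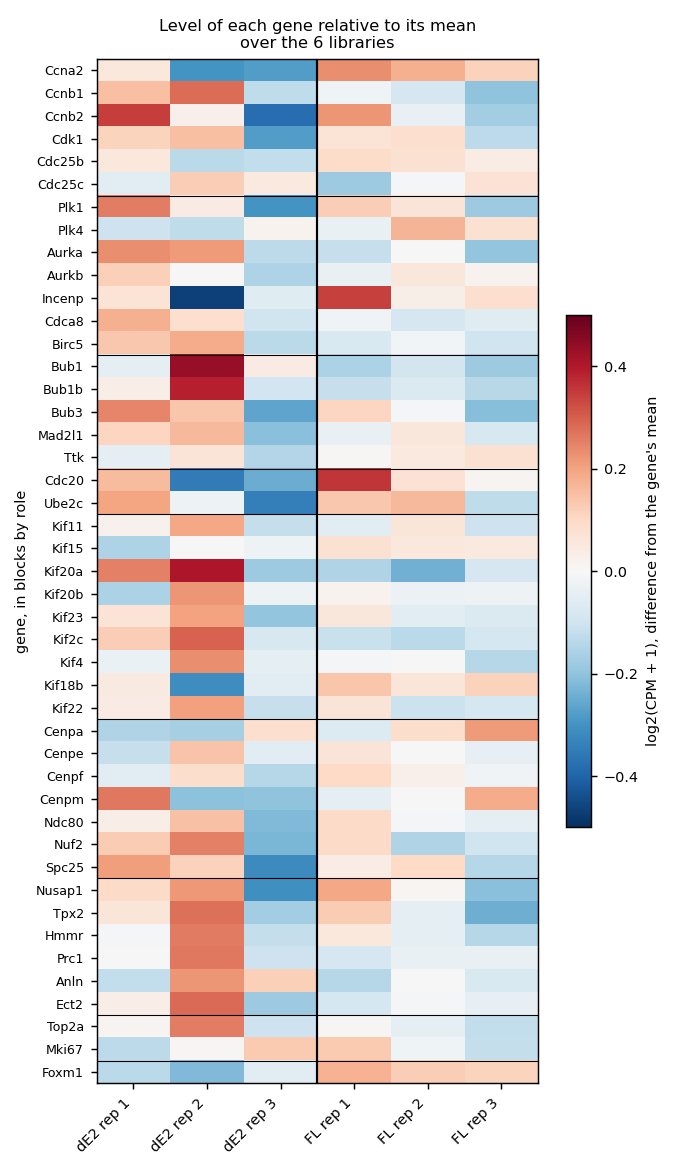
Level of each of the 45 genes in each library as log2(CPM + 1) minus the gene's mean over the 6 libraries, dE2 left of FL, with genes in blocks by role. The column of dE2 replicate 2 is mostly above the mean (red), and that of dE2 replicate 3 mostly below it (blue). The FL columns are paler.

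The counts for other genes of the pathway stand beside 3.75% of all tested genes called higher and 2.43% lower, and 11.5% and 10.1% with the block. Of 63 further mitotic genes tested, 2 were higher and 0 lower in dE2 (8 and 1 with the block). Fitted values were above 0 for 45 of the 63 (median 0.07), beside 49.5% of all tested genes. In 13 of the 63 all dE2 libraries were above all FL libraries and in 2 below, beside 13.6% and 13.5% of all tested genes. Gtse1, which encodes a microtubule-binding protein of G2 phase, had 117, 124 and 103 CPM in dE2 and 86.0, 87.0 and 82.1 CPM in FL (0.43 ± 0.12; edgeR, adjusted p = 0.031). Psrc1, a spindle protein gene, had 44.3, 42.9 and 48.6 CPM in dE2 and 30.1, 30.1 and 38.0 CPM in FL (0.47 ± 0.13, adjusted p = 0.032). Both rose with groups that did not overlap, but neither passed without a composition factor (adjusted p = 0.088 for Gtse1 and 0.12 for Psrc1). Without single libraries, adjusted p for Gtse1 was 0.16 without dE2 replicate 2, 0.10 without FL replicate 1, 0.082 without FL replicate 2 and 0.12 without FL replicate 3. For Psrc1 it was 0.093 without dE2 replicate 2, 0.073 without dE2 replicate 3, 0.15 without FL replicate 1 and 0.13 without FL replicate 2. Cenpi (0.34 ± 0.12, adjusted p = 0.10) and Ccnf (cyclin F, 0.32 ± 0.12, adjusted p = 0.13) passed with the block, at 0.0075 and 0.0099.

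Of 15 genes for subunits of the anaphase promoting complex and its partners, 0 passed (2 higher and 1 lower with the block), beside 6.17% of all tested genes and 21.5% with the block. Beside Cdc23, these were Anapc1 (0.28 ± 0.12, adjusted p = 0.168; 0.025 with the block) and Fzr1, the later activator of the complex (-0.26 ± 0.12, adjusted p = 0.223; 0.039 with the block). Of 13 condensin and cohesin genes 0 passed, with a median of -0.03 (1 higher and 1 lower with the block, beside 21.5% of all tested genes). The cohesin subunit gene Rad21 had 162, 135 and 119 CPM in dE2 and 207, 184 and 166 CPM in FL, all dE2 libraries below all FL libraries (-0.42 ± 0.13, adjusted p = 0.058; 1.8e-04 with the block). It passed with DESeq2 (adjusted p = 0.038) and the likelihood ratio test (0.041) but not with limma-voom (0.081).

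Among 14 genes that restrain the passage through G2/M, 1 rose and 0 fell (2 and 2 with the block), beside 6.17% of all tested genes and 21.5% with the block, and the list's median was 0.09. Cdkn1a, which encodes the CDK inhibitor p21, had 90.1, 70.6 and 73.1 CPM in dE2 and 47.1, 51.6 and 52.3 CPM in FL. Every dE2 library lay above every FL library, and Cdkn1a rose by 0.63 ± 0.12 on the log2 scale (edgeR, adjusted p = 0.0043). Ccng2, which encodes cyclin G2 of resting cells, had 29.0, 29.4 and 28.8 CPM in dE2 and 38.5, 38.8 and 37.0 CPM in FL (-0.39 ± 0.12, adjusted p = 0.0504; 0.0050 with the block). Gadd45b (0.39 ± 0.16) and the CDK1-inhibiting kinase gene Pkmyt1 (-0.31 ± 0.16) passed with the block alone, at adjusted p = 0.042 and 0.032. Chek2, a DNA damage kinase gene (0.26 ± 0.12), Gadd45a (-0.63 ± 0.33, at about 1 CPM) and Gadd45g (0.56 ± 0.26) did not pass in either fit.

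Of 25 genes for MuvB subunits, MYB, RB and E2F factors, 0 rose and 1 fell (0 and 3 with the block), beside 2.43% of all tested genes called lower and 10.1% with the block, and the list's median was -0.12. Myb, a transcription factor of immature and cycling blood cells, had 50.04, 50.7 and 69.0 CPM in dE2 and 88.7, 113 and 99.8 CPM in FL. All dE2 libraries lay below all FL libraries, and Myb fell by 0.83 ± 0.14 on the log2 scale (edgeR, adjusted p = 0.0011). Both Cdkn1a and Myb kept their call under every alternative run, with adjusted p of at most 0.022 and 0.031. Mybl2, which encodes the B-MYB named above, stood at -0.10 ± 0.13 (edgeR, adjusted p = 0.679), and its groups overlapped. The MuvB subunit genes Lin9 (0.04), Lin37 (-0.02), Lin52 (0.12), Lin54 (-0.15) and Rbbp4 (0.10) overlapped between groups too. In 8 of the 25 genes all dE2 libraries were below all FL libraries and in 0 above, beside 13.5% and 13.6% of all tested genes. These included Rb1 (-0.34 ± 0.13, adjusted p = 0.125) and Tfdp2 (-0.33 ± 0.13, adjusted p = 0.138), which passed with the block at 0.033 and 0.043, and E2f7 (-0.27 ± 0.11), E2f2 (-0.21 ± 0.11), Rbl1 (-0.21 ± 0.12) and Rbl2 (-0.22 ± 0.14), which did not.

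In the preceding phase, of 38 DNA replication genes 1 was higher and 0 lower in dE2 (6 and 1 with the block), beside 6.17% of all tested genes and 21.5% with the block, and the list's median was 0.09. Orc1, which loads the replicative helicase, rose with 38.2, 47.0 and 48.4 CPM in dE2 and 29.8, 29.9 and 32.4 CPM in FL (0.53 ± 0.13; edgeR, adjusted p = 0.015). Its call was lost without a composition factor (adjusted p = 0.060), without dE2 replicate 2 (0.094), without FL replicate 1 (0.063) and without FL replicate 2 (0.061).

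**Figure D5:**
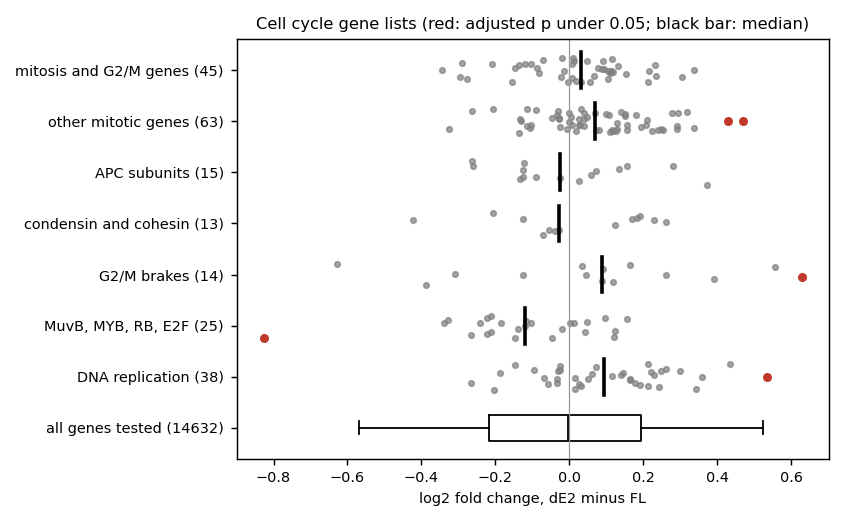
Log2 fold change (dE2 minus FL) of each gene in the cell cycle lists, with the number of tested genes in brackets, the list median as a black bar and genes with adjusted p under 0.05 in red. The bottom row is a box plot of all 14632 tested genes (box: quartiles; whiskers: 5th and 95th percentiles). The 45 mitosis and G2/M genes hold no red point.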

How the data were processed

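RNA was measured in 3 dE2 and 3 FL libraries. The submitters' processing notes name the build mm10 and the tools edgeR 3.20.8, Subread 1.5.1 with featureCounts, STAR 2.5 and bcl2fastq, without settings. The authors deposited raw counts per gene for 14777 genes. The authors' log2 CPM values, log2 fold changes and p-values were deposited too and used in no test. Sense reads were 48.4% to 49.8% of coding reads, so strand is not resolved.

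In R 4.3.3 genes were kept with filterByExpr (14632 of 14777), TMM factors were computed, and edgeR 4.0.16 gave a two-sided quasi-likelihood test of group alone, with Benjamini-Hochberg adjustment across 14632 genes. SE is the fitted value over the square root of F. RPKM is CPM over exonic length. An exact test of 3 against 3 cannot go under 0.1. Deviations from group means over all genes correlated at 0.24 to 0.46 between libraries of the same number and at -0.32 to 0.098 otherwise, so the numbers were taken to pair them (each over 0.1). Deviations within a group cancel out for each gene, so the values between different numbers are no separate evidence of pairing. What libraries of 1 number share is not in the labels. The test was tried on simulated data. Overlaps and shared 50-base stretches came from GENCODE M21 (GRCm38), and promoters from RefSeq.

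The genes and lists were chosen with earlier results of these data known. Per-library values are given for a lead gene of each role, genes called, the 5 with the smallest p and the highest and lowest per kilobase; Kif2c and Ube2c were chosen after their values were seen. Of the other lists up to 4 genes with the smallest p, or 8 of brakes and regulators, are named. Mybl2 and the MuvB subunit genes were added after their values were seen. Alternatives were other scalings (DESeq2 1.42.0 size factors, upper quartile, none), filters, DESeq2, limma-voom (limma 3.58.1), the likelihood ratio test, the block and each library left out.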

Additional observations from a re-analysis of the deposited data

How the results depend on the processing

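With DESeq2 size factors, upper quartile scaling, both other filters, DESeq2, limma-voom and the likelihood ratio test, 4.48% to 8.12% of tested genes passed. Of the 45 genes, 0 were called in these runs. Without a composition factor 0 were higher and 2 lower (Ccna2 and Foxm1), the median log2 fold change was -0.11 for the 45 genes and -0.14 for all tested genes, the difference in mean log2 CPM was -0.12, and all calls became 264 higher and 954 lower, against 548 and 355. Limma-voom called 227 genes lower. The replicate block, fitted on the pairing of the numbers, called 2 of the 45 higher and 4 lower, and 1678 and 1471 of all genes. The block without dE2 replicate 1 called 1 and 1 of the 45, and 881 and 693 of all genes. With single libraries left out, 0 to 1 of the 45 were higher and 0 to 2 lower, with a median of -0.024 to 0.14, and 125 to 780 of all genes were higher and 51 to 587 lower. The fewest calls over all genes came without dE2 replicate 2 and the most without dE2 replicate 1. The median of all tested genes was -0.014 to 0.0017, and the difference in mean log2 CPM was -0.036 to 0.075. The cause of these changes was not tested. Genes near 0 changed sign without passing. This happened without a composition factor for Ccnb2 (-0.13), Cdc25c (-0.059), Plk1 (-0.13), Cdca8 (-0.024), Birc5 (-0.0064), Bub3 (-0.049), Mad2l1 (-0.090), Kif11 (-0.071), Kif20b (-0.11), Kif23 (-0.084), Kif4 (-0.033), Kif22 (-0.046), Nuf2 (-0.029), Spc25 (-0.12), Nusap1 (-0.13), Tpx2 (-0.026), Hmmr (-0.045), Prc1 (-0.025), Ect2 (-0.037), Top2a (-0.022) and Mki67 (-0.13). With CPM of at least 5 in 3 libraries it happened for Ccnb2 (-0.0060), Plk1 (-0.0099), Spc25 (-0.0011), Nusap1 (-0.0096) and Mki67 (-0.0089). With upper quartile scaling it happened for Ccnb2 (-0.022), Plk1 (-0.025), Spc25 (-0.016), Nusap1 (-0.025) and Mki67 (-0.023). With limma-voom it happened for Ccnb2 (-0.0079) and Plk1 (-0.0031), with the replicate block for Ccnb2 (-0.0061) and Plk1 (-0.0022), and with the replicate block without dE2 replicate 1 for Ccnb2 (-0.071), Plk1 (-0.070), Mad2l1 (-0.0070), Cenpe (0.069) and Spc25 (-0.079). Single libraries left out gave both signs for Aurkb (-0.086 to 0.044), Bub3 (-0.016 to 0.22), Ccnb2 (-0.18 to 0.18), Cdk1 (-0.086 to 0.12), Cenpe (-0.096 to 0.040), Ect2 (-0.029 to 0.21), Hmmr (-0.024 to 0.17), Kif11 (-0.021 to 0.14), Kif20b (-0.082 to 0.11), Kif23 (-0.040 to 0.15), Mad2l1 (-0.027 to 0.15), Mki67 (-0.066 to 0.077), Ndc80 (-0.11 to 0.069), Nusap1 (-0.10 to 0.14), Plk1 (-0.13 to 0.14), Prc1 (-0.0019 to 0.19), Spc25 (-0.090 to 0.16), Tpx2 (-0.0080 to 0.22) and Ube2c (-0.24 to 0.023). With 3 libraries a group, the 95% intervals set the precision for the 45 genes. Where a gene's interval holds 0, its difference cannot be told from none, and any difference inside the interval remains possible.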
